A study of Mus musculus with 12 samples.

Results

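Glycolysis and hypoxia genes were followed in 12 salivary tumors of MMTV-Hras mice, to ask whether loss or mutation of p53 went with a different level of these genes. The set was chosen by name: 37 genes for glucose uptake, glycolysis, pyruvate and lactate handling, the hypoxia-inducible factor (HIF) and its oxygen sensors, and the response to low oxygen. A gene counted as measured if the array carried at least 1 probe set annotated to its symbol alone. By this rule 33 of the 37 genes were measured, by 65 of the 22629 probe sets tested, out of 12394 genes in all. Ankrd37, Bnip3l, Eno1 and Gpi1 had no probe set annotated to them alone. Where a gene had several probe sets, the one with the highest mean level over the 12 tumors stood for it. Levels are on the log2 scale, so that a difference of 1 is a factor of 2.

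The 3 groups held 4 tumors each, with 1 array of total tumor RNA per tumor. MMTV-ras/p53R172H/R172H tumors (MT, called MT1 to MT4) were homozygous for a p53 missense allele, MMTV-ras/p53-/- tumors (KO, KO1 to KO4) had no p53, and MMTV-ras/p53+/+ tumors (WT, WT1 to WT4) had the wild-type gene. All 12 carried the Hras transgene, driven by the mouse mammary tumor virus promoter, which is active in salivary and mammary epithelium. KO and WT mice came from 1 mixed Balb/c and C57BL/6 colony, and the R172H allele was bred in from C57BL/6 mice, so strain background can differ between the MT group and the others. The study took mainly male mice and chose small adenocarcinomas that lacked extensive necrosis. Nothing in the labels ties a tumor number to a mouse, so the p-values cover the spread among the tumors as labeled. In bulk RNA, fewer cells of a type and less RNA per cell cannot be told apart.

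Glycolysis splits glucose to pyruvate. Hexokinases trap glucose in the cell, phosphofructokinases commit it to the pathway, and pyruvate kinase makes pyruvate, which lactate dehydrogenase turns to lactate. When oxygen is plentiful, prolyl hydroxylases mark the HIF alpha subunits for destruction. When oxygen is scarce the subunits persist and bind short core motifs near many of the genes described here, raising both glucose use and genes such as Car9, Bnip3 and Adm. Oxygen control of HIF acts mainly on the protein, so the transcript levels of Hif1a and Epas1 do not read it directly. p53 is known to act on several of these steps in other systems.

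The HIF core motif was searched as ACGTG and GCGTG on both strands of the RefSeq promoter windows (GRCm38.p6), which run from 250 bases before to 50 bases after a transcription start. A palindrome CACGTG counts as 2 matches, 1 on each strand. Windows were listed for 33 of the 37 genes, which are not the same 33 as those measured. None was listed for Ndrg1, Slc2a3, Epas1 and Bnip3l, whereas Gpi1, Eno1 and Ankrd37 had windows but were not measured. Of the 33 genes with windows, 24 (72.7%) held ACGTG in at least 1 window, against 21.8% of 27025 genes, and 29 (87.9%) held either motif, against 46.7%. Counted by window, 27 of 46 windows (58.7%) held ACGTG, against 19.6% of 32851. The motif holds a CG pair, and the windows of these genes had a median of 21 CG pairs, against 7 over all windows. Among the 8148 windows with at least 21 CG pairs, 29.0% held ACGTG. The set was chosen by name and includes genes that HIF is known to bind near, so its motif share is a description and not a test. The 5 windows below were picked because they hold ACGTG, from genes whose levels are given later. The capitals mark every ACGTG or GCGTG on either strand. They are Aldoc at its upstream start (chr11:78322823-78323122, plus strand), Pkm at its downstream start (chr9:59656977-59657276, plus strand), Ldha at its upstream start (chr7:46845554-46845853, plus strand), Slc2a1 (chr4:119108495-119108794, plus strand) and Bnip3 (chr7:138909457-138909756, minus strand).
Aldoc: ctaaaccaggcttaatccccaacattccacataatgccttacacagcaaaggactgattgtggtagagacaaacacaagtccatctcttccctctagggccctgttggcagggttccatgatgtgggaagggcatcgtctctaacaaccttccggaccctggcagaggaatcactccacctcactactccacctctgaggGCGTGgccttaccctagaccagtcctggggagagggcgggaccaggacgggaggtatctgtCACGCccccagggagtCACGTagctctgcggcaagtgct
Pkm: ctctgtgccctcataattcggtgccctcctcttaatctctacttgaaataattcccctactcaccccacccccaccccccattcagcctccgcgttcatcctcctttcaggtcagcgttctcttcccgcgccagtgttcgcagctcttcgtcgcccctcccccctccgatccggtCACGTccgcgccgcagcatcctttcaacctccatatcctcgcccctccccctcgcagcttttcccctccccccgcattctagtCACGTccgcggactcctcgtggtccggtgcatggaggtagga
Ldha: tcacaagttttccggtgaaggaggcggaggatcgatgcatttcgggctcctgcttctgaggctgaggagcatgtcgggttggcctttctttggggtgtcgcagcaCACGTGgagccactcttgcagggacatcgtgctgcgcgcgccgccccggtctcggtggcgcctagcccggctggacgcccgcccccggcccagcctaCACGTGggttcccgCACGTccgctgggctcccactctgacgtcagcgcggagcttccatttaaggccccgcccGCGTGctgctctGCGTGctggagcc
Slc2a1: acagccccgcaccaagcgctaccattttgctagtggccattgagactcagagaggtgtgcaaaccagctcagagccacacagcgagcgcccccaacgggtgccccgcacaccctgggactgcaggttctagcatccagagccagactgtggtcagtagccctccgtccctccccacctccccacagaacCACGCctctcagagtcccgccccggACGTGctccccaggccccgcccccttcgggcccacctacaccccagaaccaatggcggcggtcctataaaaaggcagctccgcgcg
Bnip3: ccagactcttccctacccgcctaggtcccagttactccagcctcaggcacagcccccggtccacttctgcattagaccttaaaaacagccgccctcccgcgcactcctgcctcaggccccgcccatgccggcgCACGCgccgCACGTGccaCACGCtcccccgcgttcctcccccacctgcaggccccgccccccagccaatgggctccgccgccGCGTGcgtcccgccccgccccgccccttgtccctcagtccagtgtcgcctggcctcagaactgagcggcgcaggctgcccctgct

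The Ldha window held the most ACGTG matches of the windows searched for these genes, 5, of which 4 came from a pair of palindromes. Of the other windows shown, Bnip3 held 2 and Pkm 2, and Aldoc and Slc2a1 1 each. The other start listed for Aldoc and for Ldha held no ACGTG, and that for Pkm held neither motif. For Car12, Eno2, Gpi1 and Tpi1 the only window listed held neither motif. A match describes the letters of the window and is no evidence of binding in these tumors.

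**Figure D1:**
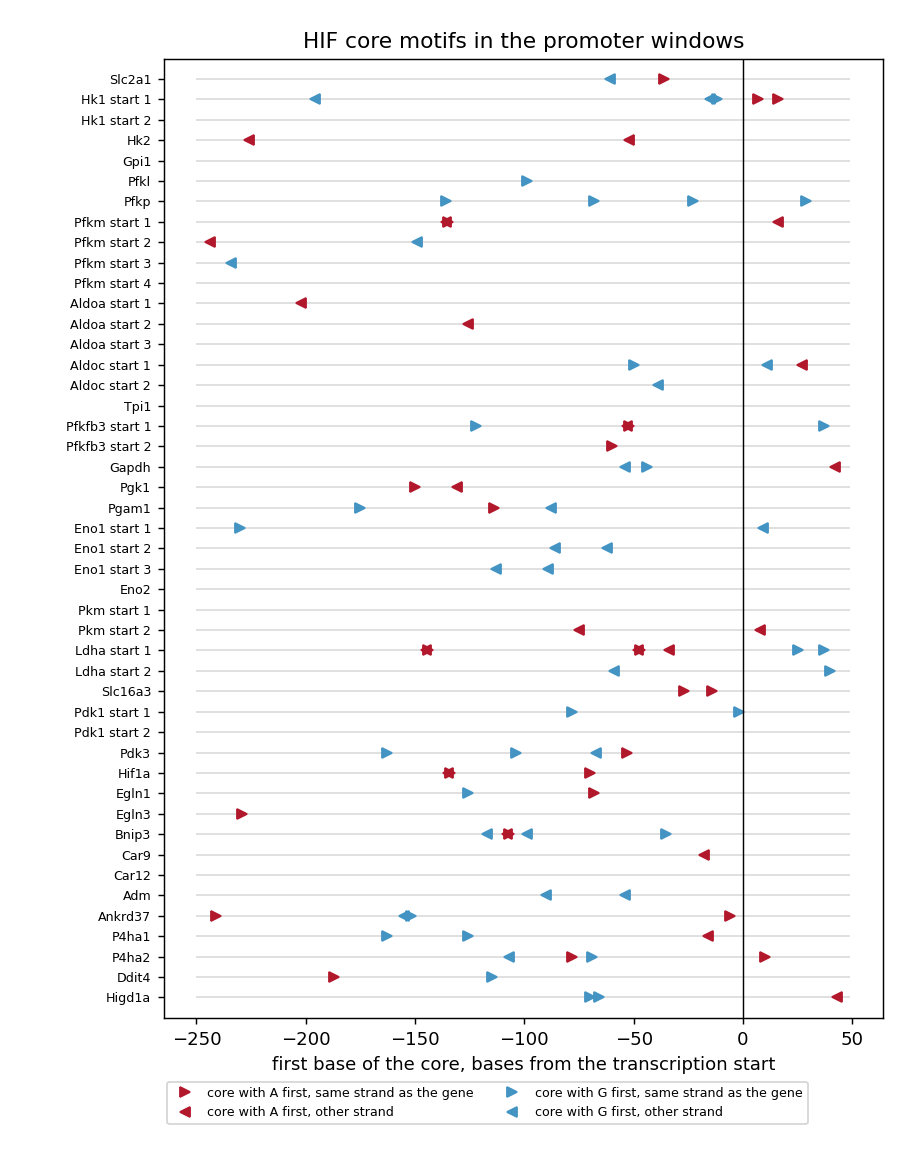
Position of each HIF core motif in the promoter windows of 33 listed genes; the horizontal axis is the distance in bases of the first base of the motif from the transcription start, each line is a window, and the direction and color of a triangle give its strand and its first letter. Of 46 windows, 27 hold the motif with A first (red).

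None of the 33 genes passed the threshold in any of the 3 comparisons (limma, adjusted p under 0.05 over all probe sets). For MT minus WT this was 0 of 33, against 0.411% of all genes, and for MT minus KO 0 of 33, against 0%. For KO minus WT it was 0 of 33, against 4.57% of all genes. At an unadjusted p under 0.05, 4 of 33 genes passed for MT minus WT, against 18.7% of all genes, 4 for KO minus WT, against 23.9%, and 1 for MT minus KO, against 7.65%. The 4 were Aldoc, Hk1, Ldha and Pkm in MT minus WT, all higher in MT tumors. In KO minus WT they were Aldoc, Gapdh and Pkm, higher in KO tumors, and Pfkl, lower in KO tumors. Pfkl was the gene of MT minus KO. After Benjamini-Hochberg adjustment the methods' t-test called 10 of all 22629 probe sets (0.0442%) for KO minus WT and 0 in the other comparisons, so that its 0 of 33 genes says nothing about these genes.

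Groups were next compared for overlap, at the brightest probe set of each gene. Aldoc was the 1 gene whose MT tumors all lay above the WT tumors, against 4.51% of all genes, and none had MT below WT, against 6.49%. Gapdh was the 1 gene with KO above WT, against 6.08%, and none had KO below WT, against 8.22%. Between MT and KO tumors no gene was separated in either direction, against 2.16% of all genes higher and 1.68% lower. Dimmer probe sets of some genes did part the groups, and those of Pfkp and Tpi1, given below, parted MT from KO tumors.

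The differences leaned upward without passing. The median over the 33 genes was 0.21 for MT minus WT, with 23 of 33 genes (69.7%) above 0, against a median of -0.01 and 48.8% for all genes. For KO minus WT the median was 0.23, with 25 of 33 genes (75.8%) above 0, against -0.01 and 48.3% for all genes. For MT minus KO the median was -0.01, with 16 of 33 genes (48.5%) above 0, against 0.02 and 53.3% for all genes. Without KO1 the KO minus WT median was 0.08, and the MT minus WT median was 0.10 without MT2 and 0.08 without WT3. These genes are not independent of each other, and the MT and KO values share the same 4 WT tumors. The intervals were wide. The 95% interval stayed within a 2-fold change either way for 18 of 33 genes in MT minus WT, 12 in KO minus WT and 15 in MT minus KO, and the intervals of the other genes reached beyond 2-fold.

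**Figure D2:**
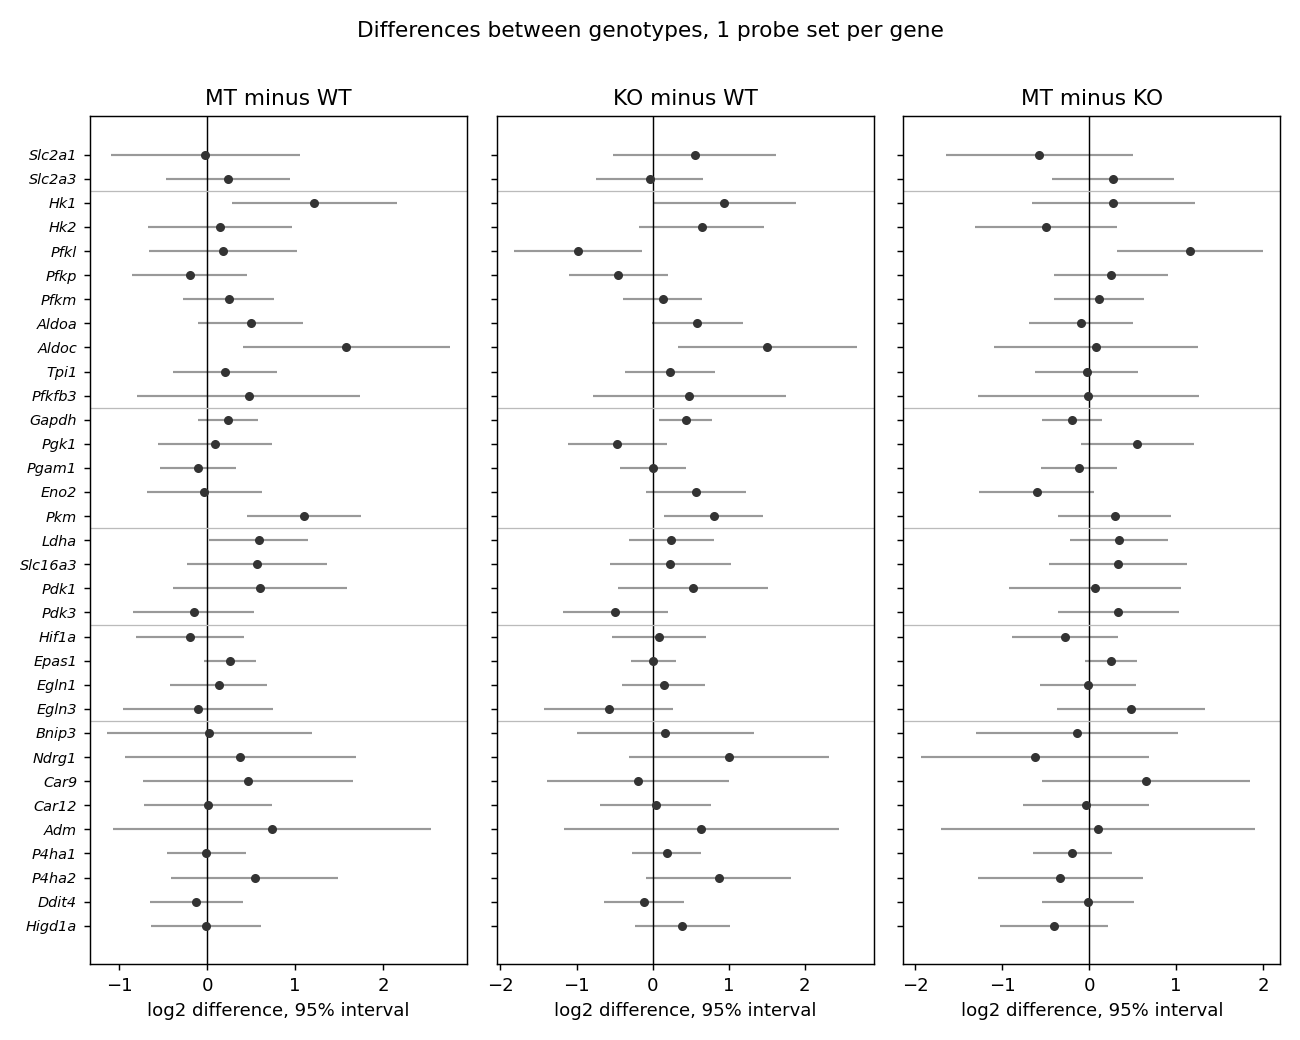
Difference between genotype means for each of the 33 genes at its brightest probe set, with its 95% interval from limma; the horizontal axes are log2 differences for MT minus WT, KO minus WT and MT minus KO, and gray lines part the 6 role groups. Aldoc has the highest points in MT minus WT (1.58) and KO minus WT (1.51), and Pfkl lies below 0 in KO minus WT (-0.98).

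Array controls parted the MT tumors. The poly-A controls, bacterial transcripts added to RNA before labeling, averaged 10.38 to 10.56 on the arrays of MT1, MT2 and MT3 and 3.98 to 4.23 on the other 9 arrays, so MT4 is the only MT tumor that shares this state with the KO and WT tumors. With the control level as a block, MT1 to MT3 fall out of the comparison and an MT value is that of MT4 against the other group. The medians were then 0.31 for MT minus WT and -0.12 for MT minus KO. By role, the MT minus WT median turned to -0.23 for upper glycolysis (0.24 without the block) and to -0.19 for lower glycolysis (0.09 without it). It was 0.28 for the HIF subunits and hydroxylases (0.01 without it), 0.38 for the hypoxia response genes (0.03), 0.42 for pyruvate and lactate genes (0.58) and 0.28 for the transporters (0.11). The MT minus KO median turned to -0.21 for upper glycolysis (0.08 without the block) and to 0.02 for the transporters (-0.15). The part of the control level in the MT results was not tested beyond this.

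Slc2a1, the basal glucose transporter, had the smaller 3-group p of the transporters. Its levels were 8.22, 10.15, 8.94 and 9.56 in MT1 to MT4, 10.95, 9.47, 8.61 and 10.13 in KO1 to KO4, and 8.96, 9.61, 8.92 and 9.45 in WT1 to WT4. KO1 was the highest of the 12 tumors and MT1 the lowest, and all 3 groups overlapped. The difference was -0.02 ± 0.49 (SE) for MT minus WT and 0.55 ± 0.49 for KO minus WT (limma adjusted p = 0.988 and 0.525). All 3 Slc2a1 probe sets had MT2 highest and MT1 lowest of the MT tumors, and KO1 highest and KO3 lowest of the KO tumors. They disagreed on MT minus WT, which was -0.04 at a second probe set and 0.62 at the dimmest (limma adjusted p = 0.972 and 0.503). Slc2a3, the neuronal-type transporter, averaged 5.63 in MT, 5.35 in KO and 5.39 in WT tumors, with WT1 the highest tumor at 6.54.

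Aldoc, the aldolase isoform best known from brain, held the only call of the 65 probe sets. At its dimmer probe set the levels were 5.80, 5.60, 6.01 and 6.32 in MT1 to MT4, 7.23, 7.13, 5.61 and 5.28 in KO1 to KO4, and 4.31, 4.55, 4.98 and 4.87 in WT1 to WT4. All 4 MT and all 4 KO tumors lay above all 4 WT tumors, and KO1 and KO2 lay well above KO3 and KO4. Aldoc rose in KO relative to WT tumors there, by 1.63 ± 0.41 (limma adjusted p = 0.0449). The probe set is dim, with KO1 and KO2 alone above the array medians of 6.85 to 6.97, and whether its WT levels lie above background was not tested, so no fold is given. This made 1 called probe set of 65 in KO minus WT, against 4.57% of all probe sets. In MT minus WT the difference was 1.26 ± 0.41 (limma adjusted p = 0.146), and 0 of 65 probe sets were called, against 0.367%. In MT minus KO 0 of 65 were called, against 0.00884%.

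The brighter Aldoc probe set gave the same direction. Levels were 12.80, 11.81, 12.00 and 11.94 in the MT tumors, 12.60, 12.79, 12.26 and 10.59 in the KO tumors, and 9.20, 11.46, 10.94 and 10.61 in the WT tumors. The MT tumors lay above every WT tumor, whereas KO4 lay among the WT tumors. The differences were 1.58 ± 0.54 for MT minus WT, a 3.00-fold difference, and 1.51 ± 0.54 for KO minus WT, 2.84-fold (limma adjusted p = 0.158 and 0.120). MT4 alone, the tumor that shares the control level, lay 1.39 above the WT mean. The call at the dimmer probe set was lost when any of 11 tumors was left out, at a limma adjusted p of up to 0.113, and held without KO4, at 0.0280, with 3.52% of all probe sets called.

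Among the other enzymes of upper glycolysis, Hk1, the broadly expressed hexokinase, had levels of 10.12, 9.40, 9.97 and 8.85 in the MT tumors, 9.12, 9.67, 9.54 and 8.89 in the KO tumors, and 8.07, 9.76, 7.66 and 7.97 in the WT tumors. WT2 lay among the MT and KO tumors, and the other 3 WT tumors lay below all 8 of them. The difference was 1.22 ± 0.43 for MT minus WT and 0.94 ± 0.43 for KO minus WT (limma adjusted p = 0.168 and 0.209). MT4 alone lay 0.49 above the WT mean. Without WT2 both passed, with differences of 1.68 and 1.40 (limma adjusted p = 0.0334 and 0.0336), as did 1.22% and 4.29% of all probe sets. Hk1, Pfkl, Gapdh, Pdk1, Bnip3, Ndrg1, Adm, Car9 and Ddit4 were chosen for closer description after their values were seen.

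Pfkl, the liver-type phosphofructokinase, was the member with the lowest KO minus WT difference. Levels were 10.60, 11.43, 10.43 and 9.84 in the MT tumors, 10.03, 9.54, 8.60 and 9.48 in the KO tumors, and 10.02, 11.17, 9.99 and 10.40 in the WT tumors. KO1 overlapped the other groups and KO2 to KO4 lay below every MT and WT tumor. The difference was -0.98 ± 0.38 for KO minus WT and 1.16 ± 0.38 for MT minus KO (limma adjusted p = 0.149 and 0.364). MT4 alone lay 0.43 above the KO mean. A second probe set gave -1.02 for KO minus WT, with no overlap of the groups (limma adjusted p = 0.0846). Pfkl, Hk1, P4ha1 and Ddit4 lie on chromosome 10, where the mean difference over 560 genes was -0.25 for KO minus WT and -0.18 for MT minus WT, and the part of this shift in the Pfkl value was not tested.

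The other 6 upper glycolysis genes had differences between -0.45 and 0.64 for KO minus WT. Aldoa, the main aldolase of muscle and most tissues, averaged 12.14 ± 0.39 in MT, 12.23 ± 0.54 in KO and 11.64 ± 0.30 in WT tumors (SD, n = 4 each). Its 4 probe sets all lay higher in KO than in WT tumors, by 0.58 to 1.05 (limma adjusted p = 0.277 to 0.0762). Hk2, the inducible hexokinase, averaged 8.83, 9.33 and 8.69 in MT, KO and WT tumors, and Tpi1, the triose isomerase, 11.63, 11.66 and 11.43. The Tpi1 probe sets disagreed, with an MT minus WT difference of 0.21 at the brightest and -0.58 at another (limma adjusted p = 0.710 and 0.172). At that other probe set every MT tumor lay below every KO and WT tumor, and MT minus KO was -0.55 (limma adjusted p = 0.430). Pfkp and Pfkm, the platelet and muscle phosphofructokinases, averaged 8.10 and 8.60 in MT, 7.84 and 8.48 in KO, and 8.29 and 8.35 in WT tumors. For Pfkp, MT minus WT was -0.20 at this probe set and 0.48 at a dimmer one (limma adjusted p = 0.756 and 0.456). At the dimmer one every MT tumor lay above every KO tumor, by 1.09 on average (limma adjusted p = 0.333). MT4 alone lay 0.50 above the KO mean there. Pfkfb3, which makes the activator of phosphofructokinase, also had probe sets that disagreed, with 0.48 at one and -0.49 at the other for KO minus WT.

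Pkm, the pyruvate kinase of muscle and tumors, had the smallest 3-group p of lower glycolysis. Levels were 12.40, 11.80, 12.29 and 11.21 in the MT tumors, 11.93, 11.86, 11.65 and 11.08 in the KO tumors, and 10.35, 11.35, 10.64 and 10.96 in the WT tumors. MT4 and KO4 lay below WT2, and the other 6 MT and KO tumors lay above every WT tumor. The difference was 1.10 ± 0.30 for MT minus WT and 0.80 ± 0.30 for KO minus WT, 2.14-fold and 1.75-fold (limma adjusted p = 0.103 and 0.131). MT4 alone lay 0.38 above the WT mean, and without MT4 the MT minus WT difference was 1.34 (limma adjusted p = 0.0284), with 3.54% of all probe sets called. Without MT4 every MT array has high poly-A controls and every WT array low ones. Genotype and control level cannot be told apart in that comparison.

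Gapdh averaged 13.03 ± 0.29 in MT, 13.23 ± 0.17 in KO and 12.80 ± 0.18 in WT tumors at an array control probe set for this gene. The KO tumors, 13.10 to 13.46, lay above the WT tumors, 12.66 to 13.06, with a difference of 0.43 ± 0.16 (limma adjusted p = 0.124). KO4 had the largest gap between the 3' and 5' Gapdh probe sets, 0.44, against -0.15 to 0.12 in the other 11 tumors, and at the 5' probe set the KO minus WT difference was 0.28, with overlap. Pgk1, the phosphoglycerate kinase, averaged 11.80 in MT, 11.25 in KO and 11.71 in WT tumors. Pgam1, a mutase, averaged 10.27, 10.38 and 10.37 in MT, KO and WT tumors, with 95% intervals of -0.54 to 0.33 for MT minus WT and -0.43 to 0.44 for KO minus WT. Eno2, the neuronal enolase, stood at 5.75 in KO1 and 5.19 in KO2 and between 4.08 and 4.41 in the other 10 tumors.

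**Figure D3:**
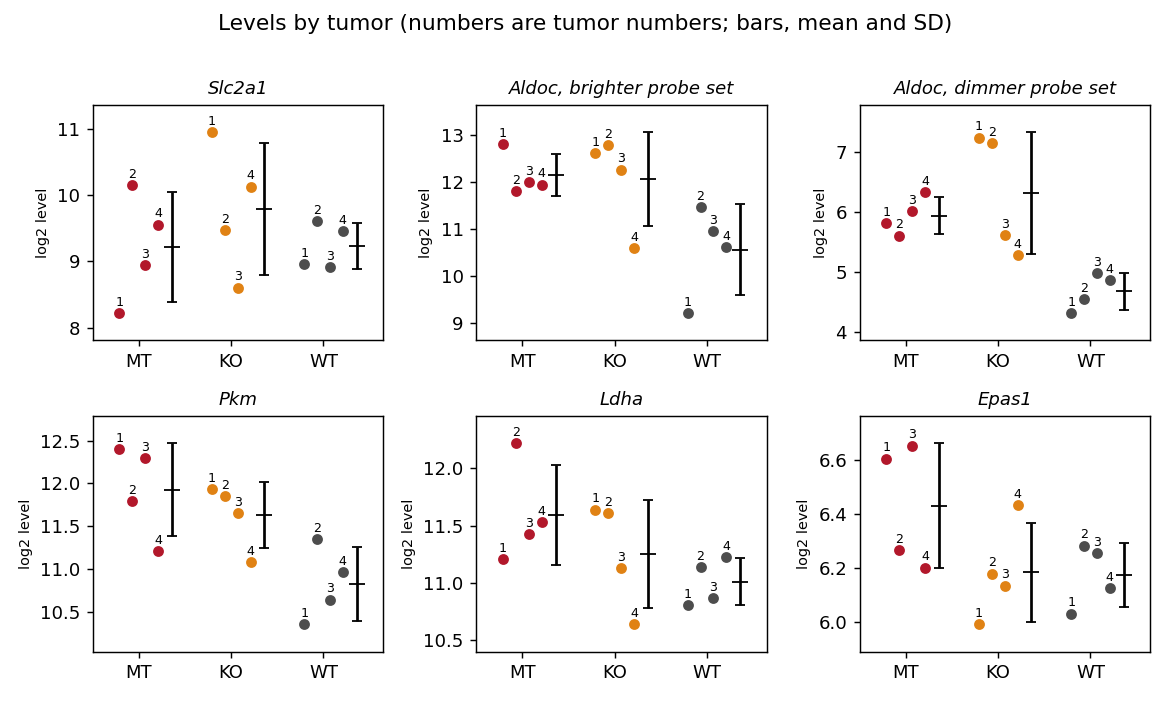
Log2 level of Slc2a1, Aldoc (both probe sets), Pkm, Ldha and Epas1 in each tumor, with MT, KO and WT tumors from left to right, the tumor number above each point, and the mean with its SD as a bar (n = 4). The dimmer Aldoc probe set is the panel in which all MT and KO tumors lie above the WT tumors, and KO1 is the highest tumor for Slc2a1 (10.95).

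Ldha, the lactate dehydrogenase subunit that favors lactate, had levels of 11.21, 12.22, 11.43 and 11.53 in the MT tumors, 11.64, 11.61, 11.13 and 10.64 in the KO tumors, and 10.80, 11.14, 10.87 and 11.22 in the WT tumors. MT1 lay just below WT4, and the other 3 MT tumors lay above every WT tumor. The difference was 0.59 ± 0.26 for MT minus WT and 0.25 ± 0.26 for KO minus WT (limma adjusted p = 0.241 and 0.596). Slc16a3, the lactate exporter, averaged 6.63 in MT, 6.29 in KO and 6.06 in WT tumors, with MT2 at 7.71 and KO1 at 7.16 above all others. Pdk1, a kinase that inhibits pyruvate dehydrogenase, had a difference of 0.60 ± 0.45 for MT minus WT at its brightest probe set (limma adjusted p = 0.485), where MT4 alone lay 1.41 above the WT mean. Its other probe set read 9.64, 9.47, 9.50 and 9.12 in the MT tumors, 9.34, 9.51, 8.58 and 7.78 in the KO tumors, and 8.30, 7.87, 7.65 and 8.33 in the WT tumors. There the MT tumors lay above every WT tumor, by 1.39 ± 0.33 on average (limma adjusted p = 0.0769). Pdk3, a related kinase, averaged 7.84, 7.50 and 7.99 in MT, KO and WT tumors.

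The 4 HIF subunits and hydroxylases had a median difference of 0.01 for MT minus WT and 0.05 for KO minus WT. Epas1, the HIF-2 alpha subunit, read 6.61, 6.26, 6.66 and 6.20 in the MT tumors, 5.99, 6.18, 6.13 and 6.43 in the KO tumors, and 6.03, 6.28, 6.25 and 6.12 in the WT tumors. MT1 and MT3 were the highest tumors and the groups overlapped, with differences of 0.26 ± 0.14 for MT minus WT and 0.01 ± 0.14 for KO minus WT (limma adjusted p = 0.324 and 0.973). MT4 alone lay 0.03 above the WT mean. Hif1a, the HIF-1 alpha subunit, averaged 9.80 in MT, 10.08 in KO and 9.99 in WT tumors, with 95% intervals of -0.81 to 0.42 for MT minus WT and -0.53 to 0.70 for KO minus WT. Egln1, the main oxygen sensor of HIF, averaged 8.77, 8.79 and 8.64 in MT, KO and WT tumors. Egln3, a hydroxylase that HIF itself induces, averaged 10.49, 10.01 and 10.59, with KO3 the lowest tumor at 9.03.

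The 9 measured hypoxia response genes had a median difference of 0.03 for MT minus WT and 0.18 for KO minus WT. P4ha2, a collagen prolyl hydroxylase, had the smallest 3-group p among them. Levels were 6.87, 7.70, 7.08 and 7.79 in the MT tumors, 8.91, 7.69, 6.96 and 7.21 in the KO tumors, and 6.30, 7.64, 6.26 and 7.08 in the WT tumors. KO1 stood highest and WT1 and WT3 lowest, and the groups overlapped, with 0.54 ± 0.43 for MT minus WT and 0.87 ± 0.43 for KO minus WT (limma adjusted p = 0.517 and 0.248). MT4 alone lay 0.97 above the WT mean. Bnip3, which drives mitophagy under low oxygen, had levels of 8.68, 11.10, 9.51 and 10.14 in the MT tumors, 10.94, 9.97, 8.85 and 10.22 in the KO tumors, and 9.61, 10.52, 9.19 and 10.00 in the WT tumors. It ranged over 2.42 within the MT group alone, while its 3 group means lay within 0.17 of each other. Differences between the genotype means made up 1.0% of its variance.

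Ndrg1, a stress gene used as a marker of low oxygen, showed the same spread. Levels were 7.10, 10.15, 8.34 and 8.89 in the MT tumors, 9.66, 9.29, 8.40 and 9.61 in the KO tumors, and 7.60, 8.51, 7.50 and 9.36 in the WT tumors. All 5 Ndrg1 probe sets had MT2 highest and MT1 lowest of the MT tumors, KO1 highest and KO3 lowest of the KO tumors, and WT4 highest of the WT tumors. The KO minus WT difference was 1.00 ± 0.60 (limma adjusted p = 0.337) at the brightest probe set and 0.53 to 1.69 over the 5. Adm, the vessel-dilating peptide adrenomedullin, ranged from 5.68 in KO2 to 9.38 in KO4 within the KO group and was lowest in WT1, at 5.27, and its 95% interval for KO minus WT was -1.17 to 2.44. Car9, the membrane carbonic anhydrase induced by HIF, stood between 7.41 and 8.12 in MT2, MT4, KO2 and WT4 and between 5.94 and 6.54 in the other 8 tumors. Car12, a related anhydrase, averaged 9.95, 9.98 and 9.94 in MT, KO and WT tumors. Ddit4, an inhibitor of mTORC1 that p53 is also known to induce, averaged 9.28, 9.29 and 9.40, with a 95% interval of -0.64 to 0.42 for KO minus WT. P4ha1, the sister of P4ha2, averaged 7.19, 7.38 and 7.19, and Higd1a, a mitochondrial protein, 9.97, 10.38 and 9.98.

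**Figure D4:**
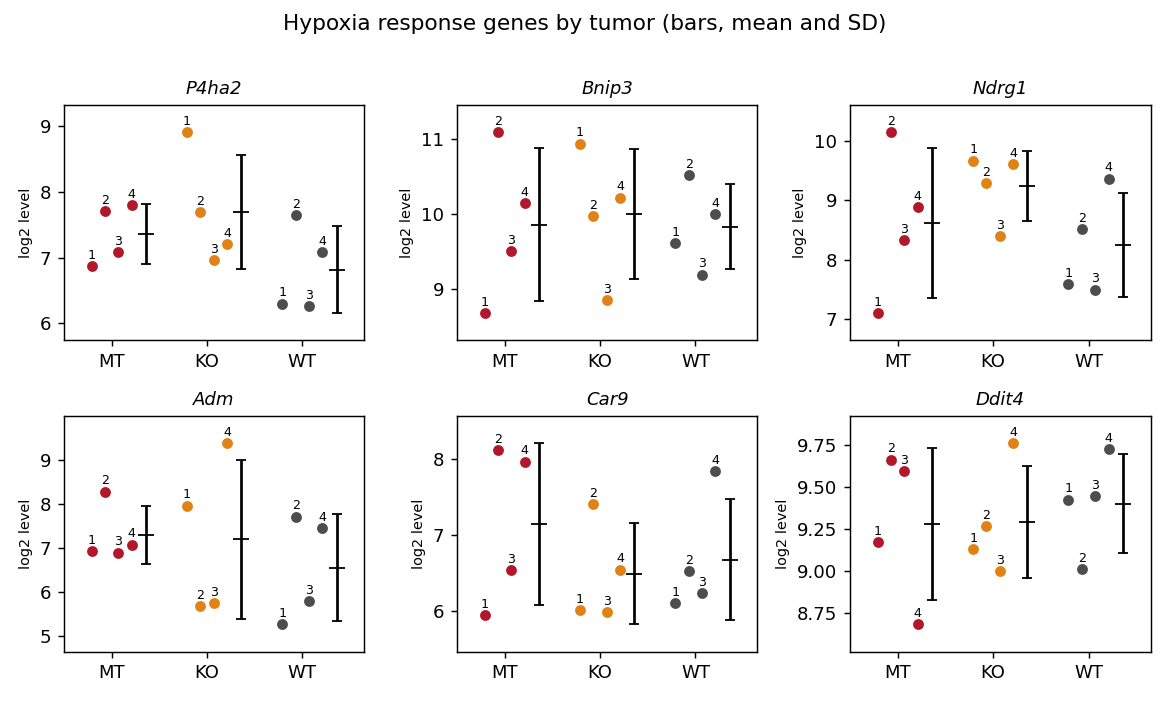
Log2 level of P4ha2, Bnip3, Ndrg1, Adm, Car9 and Ddit4 in each tumor, with MT, KO and WT tumors from left to right, the tumor number above each point, and the mean with its SD as a bar (n = 4). The groups overlap in every panel, and MT2 is the highest MT tumor for Bnip3 (11.10), Ndrg1 (10.15), Adm (8.28), Car9 (8.12) and Ddit4 (9.66).

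Most of the variation lay between tumors of 1 genotype. The within-genotype SD had a median of 0.49 over the 33 genes and 0.68 over the 9 hypoxia response genes, against 0.27 over all genes and 0.33 over the genes above the median level. Adm (1.31), Ndrg1 (0.95), Pfkfb3 (0.91), Car9 (0.86), Aldoc (0.85) and Bnip3 (0.84) had the largest. Of the 33 genes, 31 lay above the median of all genes and 25 above its upper quartile of 0.39. Differences between genotype means made up a median of 18.5% of the variance of these genes and 9.9% for the hypoxia response genes, against 26.1% for all genes. This share is not corrected for the number of groups, so it lies above 0 even where genotype has no effect.

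The same tumors recurred at the ends. MT2 was the highest MT tumor for 20 of 33 genes (60.6%), against 30.7% of all genes, and KO1 the highest KO tumor for 20 (60.6%), against 16.7%. WT2 was the highest WT tumor for 18 (54.5%), against 34.6%. KO3 was the highest KO tumor for 0 genes, against 23.4% of all genes, and the lowest for 18 (54.5%), against 16.6%. WT3 and WT1 were the lowest WT tumor for 14 (42.4%) and 13 (39.4%), against 19.7% and 26.6%. Over the 65 probe sets, which share genes, MT2 was the highest MT tumor for 41 and KO1 the highest KO tumor for 40, and KO3 was the lowest for 33. These counts were not made over all probe sets. Among hypoxia response genes MT2 was highest for 6 of 9 (66.7%, against 30.7% of all genes). KO1 was highest for 5 (55.6%, against 16.7%) and WT4 for 4 (44.4%, against 24.6%). KO3 was lowest for 7 (77.8%, against 16.6%) and MT1 for 5 (55.6%, against 23.8%).

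Averaged over the 33 genes, the deviation from the 12-tumor mean was -0.04, 0.43, 0.01 and 0.04 in the MT tumors, 0.54, 0.10, -0.37 and 0.00 in the KO tumors, and -0.40, 0.09, -0.40 and -0.01 in the WT tumors. KO1 and MT2 stood at the top and WT1, WT3 and KO3 at the bottom, with overlap of all 3 groups. Over the hypoxia response genes alone it was -0.41, 0.55, -0.10 and 0.11 in the MT tumors, 0.53, 0.13, -0.54 and 0.47 in the KO tumors, and -0.54, 0.01, -0.49 and 0.27 in the WT tumors. Both KO and MT groups held tumors near the top and near the bottom. Over all genes the same average stayed between -0.02 and 0.05 in every tumor.

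**Figure D5:**
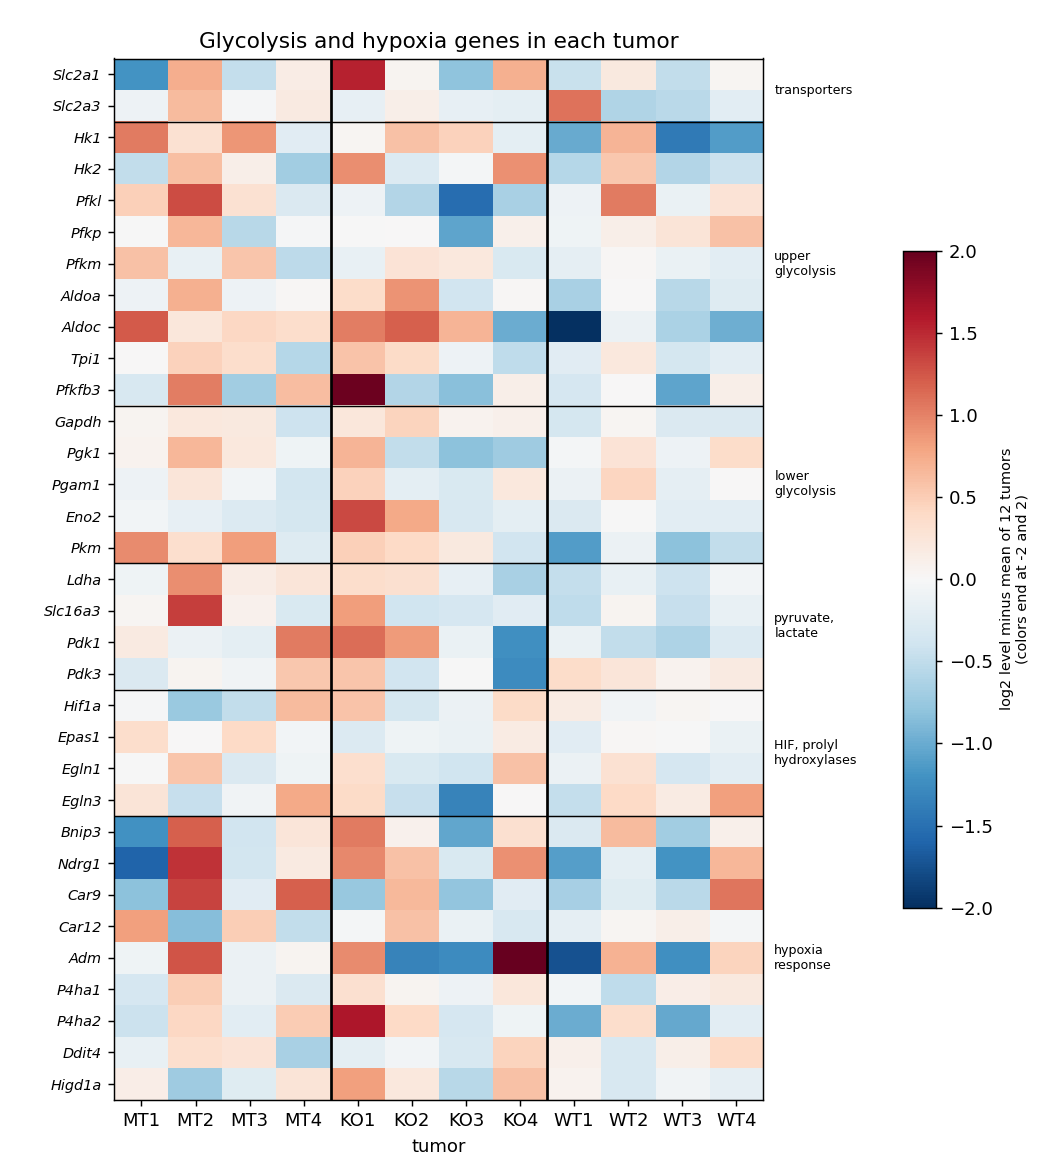
Log2 level of each of the 33 genes minus its mean over the 12 tumors (color scale, ends at -2 and 2); columns are the MT, KO and WT tumors, and each line is a gene, grouped by role. KO1 and MT2 are mostly red (mean deviation 0.54 and 0.43) and KO3, WT1 and WT3 mostly blue (-0.37, -0.40 and -0.40).

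Cell markers and array controls differed between the tumors too. The 8 luminal epithelial markers averaged 10.20 to 10.92 in MT, 10.42 to 11.04 in KO and 9.20 to 10.69 in WT tumors. WT1 and WT3, low for these genes, had mean acinar marker levels of 11.24 and 11.36, above WT4 (10.75) and WT2 (9.70) and above the MT (8.11 to 9.22) and KO (7.85 to 9.55) tumors. Of 9 measured acinar markers, 2 were lower in KO than in WT tumors, against 4.57% of all genes called, and 0 in MT than in WT tumors, against 0.411%. WT1 also had the highest B and plasma cell markers, 10.06, against 4.97 to 5.28 in the other 11 tumors. KO3 had the highest granular duct markers, 10.95, against 6.63 to 7.83 in the others. Of 8 macrophage markers, Cd68 and Lyz2 were lower in KO than in WT tumors, as were Pecam1 and Emcn of 7 endothelial markers (limma adjusted p = 0.0357 to 0.0483), against 4.57% of all genes called. The median KO minus WT difference was -0.66 over the 8 macrophage markers and -0.28 over the 7 endothelial markers. KO4 had the largest 3' to 5' gap of the Actb control, 1.05, against 0.17 to 0.58. The 18S ribosomal RNA control read 6.41 to 7.66 in MT, 7.36 to 8.03 in KO and 7.51 to 9.33 in WT tumors, with WT1, WT2 and WT3 (9.11, 8.90 and 9.33) above the other 9 tumors and MT1 to MT3 lowest. The part of these markers and controls in the values above was not tested. Trp53, the targeted gene, read 8.80, 9.03, 8.82 and 7.88 in the MT tumors, 5.85, 6.33, 6.24 and 6.36 in the KO tumors, and 7.89, 7.38, 8.01 and 8.01 in the WT tumors, so every KO tumor lay below every other.

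Other genes of these pathways were called about as often as all genes (4.57% for KO minus WT). Of 39 further genes of glucose use, 31 were measured, 0 were higher and 1 was lower in KO than in WT tumors, and 0 passed in MT minus WT or MT minus KO. The 1 was Pgm2, a phosphopentomutase, which read 7.11, 7.11, 7.31 and 7.28 in the MT tumors, 7.03, 7.51, 7.28 and 7.54 in the KO tumors, and 7.94, 7.74, 7.87 and 7.84 in the WT tumors. All MT and KO tumors lay below all WT tumors, with a KO minus WT difference of -0.51 ± 0.12 (limma adjusted p = 0.0409). Of 40 further genes of the hypoxia response and HIF control, 34 were measured and 2 passed in KO minus WT, 1 higher and 1 lower, with 0 in the comparisons of MT tumors. Plod2, a collagen lysyl hydroxylase, read 9.34, 8.83, 10.05 and 9.92 in the MT tumors, 10.31, 10.43, 9.93 and 10.70 in the KO tumors, and 8.93, 8.05, 9.04 and 9.45 in the WT tumors. It was 2.78-fold higher in KO than in WT tumors (limma adjusted p = 0.0318). Hmox1, the heme oxygenase that is abundant in macrophages, read 6.61, 7.58, 6.89 and 7.93 in the MT tumors, 7.06, 6.59, 6.53 and 8.04 in the KO tumors, and 8.70, 9.75, 8.77 and 8.76 in the WT tumors. It fell by 1.94 on the log2 scale in KO relative to WT tumors (limma adjusted p = 0.0229), and it lay below all WT tumors in all MT and KO tumors.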

How the data were processed

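The deposited values are log2 expression levels, 1 per probe set and tumor, from Affymetrix mouse arrays. Per the paper's methods the authors made them with RMA (background correction, quantile normalization, median polish), and the submitters' processing notes also name MAS5, without versions. Quantile normalization makes levels relative to each array, and the number of arrays limits precision. Of 64 control probe sets, 61 were left out, and 3 for Gapdh were kept as members. limma 3.58.1 (lmFit, eBayes; R 4.3.3) gave genotype means over the 12 tumors, tested 2-sided with Benjamini-Hochberg adjustment over 22629 probe sets. SAM of the methods was not run. In simulated KO minus WT data over 22629 probe sets, 58 of 100 changes of 1 and 88 of 100 changes of 2 on the log2 scale were recovered, with 7 false calls. The changed probe sets were drawn from all probe sets, and noise was drawn independently for each probe set. Shifts shared by many genes of a tumor were thus left out. Only the changes named above were put in, whereas the real KO minus WT comparison called 1035 probe sets. The 33 genes varied more (median within-genotype SD 0.49, against 0.27 over all genes), so these shares need not hold for them. Figures were drawn with Python and matplotlib. The members and lists were chosen with earlier results of these data known. All members were named, with tumor values for those that passed and for the smallest 3-group p in each role. The Trp53 probe sets were named from the study's supplement, and promoters from RefSeq (GRCm38.p6).

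The labels number the tumors within each genotype, but same-numbered tumors are not said to be related. The deviations of same-numbered tumors correlated at 0.0022 to 0.33 over 12 pairs, above 0.1 in 6 of them. Tumors with different numbers were not compared, so these values do not settle whether the numbers pair tumors.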

Additional observations from a re-analysis of the deposited data

Results flagged for a closer look

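In 6 of 99 groups of 4 tumors, 1 tumor lay far from the other 3, by a gap over the group's range above Dixon's 95% critical value. Chance gives about 1 in 20 such groups. MT2 was high for Aldoa (12.71, others 11.91 to 12.02, gap 0.859 of the range) and Adm (8.28, others 6.90 to 7.08, gap 0.871). KO1 was high for Slc16a3 (7.16, others 5.92 to 6.10, gap 0.861), KO2 was high for Slc2a3 (5.57, others 5.25 to 5.29, gap 0.895) and KO3 was low for Pfkp (7.02, others 8.08 to 8.19, gap 0.907). WT2 was high for Hk2 (9.48, others 8.36 to 8.52, gap 0.856).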

How the results depend on the processing

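The count of 0 called genes in each comparison held in 11 of 12 alternative settings for KO minus WT and MT minus WT and in 12 of 12 for MT minus KO. The exception was array weights, with 4 genes for KO minus WT (Hk1, Aldoc, Gapdh and Pkm, against 14.5% of all probe sets) and 5 for MT minus WT (the same 4 and Epas1, against 22.0%). In the settings that gave 0 member genes, the share of all tested ran from 0.0442% to 11.2% for KO minus WT. It ran from 0% to 2.73% for MT minus WT and from 0% to 0.194% for MT minus KO. In most settings of the MT comparisons so few passed that 0 of 33 says little about these genes. With each tumor left out in turn the count ranged from 0 to 1 for KO minus WT and for MT minus WT and stayed at 0 for MT minus KO, while the share of all probe sets called ran from 0.866% to 6.01% for KO minus WT, from 0.0177% to 3.54% for MT minus WT and from 0.00884% to 1.04% for MT minus KO. Hk1 passed in KO minus WT and MT minus WT without WT2 (4.29% and 1.22% of all probe sets called), Aldoc in KO minus WT without KO4 (3.52%), and Pkm in MT minus WT without MT4 (3.54%, against 0.367% with all tumors). Without MT4 the poly-A control level parts all MT arrays from all KO and WT arrays. Genotype and control level cannot be told apart in the MT comparisons of that setting. A looser limit for the methods' t-test was added after the data were seen, and it called 0 genes, against 1.62% of all probe sets for KO minus WT, 0.053% for MT minus WT and 0% for MT minus KO. With the replicate block of tumor numbers the count was 0 in each comparison, and the numbers are not known to pair tumors. The Aldoc call in KO minus WT lapsed with only 8 tumors, the replicate block, the control level as a block and the methods' t-test (limma adjusted p or t-test adjusted p of 0.0973, 0.0780, 0.050 and 0.187), and that probe set falls below the filter on dim values. The median difference over the 33 genes ran from 0.08 (without KO1) to 0.33 (without WT2) for KO minus WT, from 0.08 (without WT3) to 0.35 (array weights) for MT minus WT, and from -0.12 (control level as a block) to 0.17 (without KO1) for MT minus KO. The share of genes above 0 in MT minus KO was 21 of 33 after quantile normalization, against 16 of 33. With 4 tumors a genotype the 95% intervals had a median width of 1.39, so changes under 2-fold were within the interval for many of these genes.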
